A study of Mus musculus with 12 samples.

Results

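The 10 genes described here encode ATP-binding cassette (ABC) transporters that export bile constituents, drugs and lipids from hepatocytes: Abcc2, Abcc3, Abcc4, Abcb1a, Abcb1b, Abcb4, Abcg2, Abcg5, Abcg8 and Abca1. They were taken by symbol from the 54839 features of the count table, in which 40 other genes carry an ABC symbol. All 10 were among the 17121 genes that passed the filter on low counts. RNA-seq was done on hepatocytes sorted as Tom- or Tom+ from livers of p16-Tom mice, which were male, had a C57BL/6 background and were given corn oil alone or CCl4 in corn oil (1 mL/kg, one injection every 3 days). The 4 groups of 3 libraries are Tom- oil, Tom+ oil, Tom- CCl4 and Tom+ CCl4. Mice of every group were heterozygous for p16-CreERT2, carried the R26-CAG-LSL-tdTomato-WPRE reporter and received tamoxifen (80 mg/kg), so that tdTomato (Tom) marks hepatocytes in which the p16Ink4a locus was active while tamoxifen was present. Tom- cells are therefore unlabelled cells of the same kind of mouse and not cells shown to lack p16Ink4a. The authors' caption for these libraries refers to their injection scheme, which other captions describe as a 4-week treatment. The timing of tamoxifen and the age of the mice are not stated for these libraries in the sources used here.

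ABC transporters use ATP to move substrates across a membrane against their gradient. In hepatocytes one set sits in the canalicular membrane, which faces the bile. It holds Abcc2 (MRP2, conjugated bilirubin and glutathione conjugates), Abcb4 (phosphatidylcholine), Abcg2 (sulfated and drug substrates), the obligate heterodimer of Abcg5 and Abcg8 (sterols) and the P-glycoproteins Abcb1a and Abcb1b (drugs). Another set sits in the basolateral membrane and returns substrates to blood: Abcc3 (MRP3, glucuronides), Abcc4 (MRP4, bile acids and cyclic nucleotides) and Abca1, which hands cholesterol to apolipoprotein A-I. Abcc3 and Abcc4 are well known for rising in cholestatic and toxic liver injury. Nuclear receptors and the stress regulators Nfe2l2 (NRF2) and Ahr are known regulators of this family.

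Total counts ranged from 37568584 to 75331424 per library, and CPM below means TMM-normalized counts-per-million. The tdTomato reporter went against the label in 2 oil libraries. The library labelled Tom- oil 1 had 1794 CPM and that labelled Tom+ oil 2 had 135 CPM, whereas the other Tom- libraries had 120 to 263 CPM and the other Tom+ libraries 1225 to 1546 CPM. In oil, the libraries numbered 1 thus both had a high reporter level and those numbered 2 both a low one, and only number 3 paired a low Tom- with a high Tom+ library. Calls of transporters and related genes that use the oil libraries are followed by their values or counts without these 2. Leaving them out leaves 2 libraries in each oil group. Calls made only after pairing libraries by number, and calls of cell type and zone markers, are not followed in this way. The summed level of 8 hepatocyte markers was 100300 to 148900 CPM in every library. Most of this sum was Alb, at 73420 to 119000 CPM, and the 8 include Cyp3a11, which is described again below. Summed levels of 8 markers each were 15.1 to 127 CPM for macrophages, 122 to 330 CPM for endothelial cells, 8.84 to 103 CPM for stellate cells and 5.25 to 18.2 CPM for cholangiocytes, of which Krt19 and Krt7 were at 0 in every oil library. In bulk RNA, fewer cells of a type and less RNA per cell cannot be told apart.

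Abcc4 and Abcc2 were the 2 genes with a called difference between CCl4 and oil, so the 250 bases before their RefSeq start sites are shown (GRCm38.p6, 5′ to 3′ on the gene's strand). Capitals mark every match on either strand to 6 motifs: TGACNNNGC (antioxidant response core), GCGTG (xenobiotic response core), AGGTCA (nuclear receptor hexamer), CCAAT (the CCAAT box), TATAAA (the TATA box) and GGGCGG (the GC box). The Abcc4 window is chr14:118706220-118706469 on the minus strand and the Abcc2 window chr19:43782058-43782307 on the plus strand.
Abcc4: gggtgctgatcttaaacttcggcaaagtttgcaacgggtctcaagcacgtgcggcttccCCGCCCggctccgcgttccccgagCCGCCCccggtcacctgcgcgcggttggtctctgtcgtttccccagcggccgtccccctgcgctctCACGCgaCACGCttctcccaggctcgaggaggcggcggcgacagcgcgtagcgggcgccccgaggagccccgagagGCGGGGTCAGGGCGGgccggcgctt
Abcc2: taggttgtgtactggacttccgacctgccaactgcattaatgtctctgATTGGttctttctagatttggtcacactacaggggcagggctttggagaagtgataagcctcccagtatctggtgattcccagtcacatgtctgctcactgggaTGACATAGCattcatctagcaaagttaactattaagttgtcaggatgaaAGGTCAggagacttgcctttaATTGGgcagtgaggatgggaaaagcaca
The Abcc4 window is 72.0% G+C with 35 CG steps, the Abcc2 window 45.6% with 1, and the median of 32841 promoter windows is 52.4% with 6. A match to TGACNNNGC lies 25 to 17 bases before the Abcc4 start, where it adjoins a GGGCGG, and 98 to 90 bases before the Abcc2 start. Of all windows, 10.2% hold this motif, 28.2% hold GCGTG (2 matches before Abcc4), 14.0% AGGTCA (before Abcc2), 33.9% the CCAAT box (2 matches before Abcc2), 12.4% the TATA box (in neither) and 32.7% the GC box (3 matches before Abcc4). A match is a description of the letters and not a site. The RefSeq start of Abcc4 is that of the counted gene (chr14:118482692-118706219) and the start of Abcc2 lies 116 bases inside it (chr19:43782192-43840740), in mm10 coordinates.

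Abcg5 and Abcg8 are transcribed away from each other, and 109 bases separate the start of Abcg5 from a RefSeq start of Abcg8 that lies beyond it (chr17:84683012-84683120, shown on the plus strand, the strand of Abcg8). The capitals mark the 1 match among the same 6 motifs, TATAAA read on the strand of Abcg5.
Abcg5-Abcg8: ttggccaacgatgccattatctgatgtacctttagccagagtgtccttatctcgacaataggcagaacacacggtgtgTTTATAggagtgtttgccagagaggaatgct
The counted gene of Abcg8 (chr17:84676302-84700333) begins within that of Abcg5 (chr17:84658234-84683011), their exons overlap on opposite strands, and the strand setting of the counting is not given in the sources used here. Reads of one could therefore be counted for the other. The same holds for Abcb1a with Gm42686 and Abcb1b with Gm5106.

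Abcb1a (chr5:8660077-8748575), Abcb1b (chr5:8798147-8866315) and Abcb4 (chr5:8893717-8959231) follow each other on the plus strand of chromosome 5 and are close paralogs, each with 3831 coding bases. The coding sequences of Abcb1a and Abcb1b are 88.0% identical, against 75.6% for Abcb1a and Abcb4 and 74.0% for Abcb1b and Abcb4. Of the stretches of 50 bases in the Abcb1a coding sequence, 20.3% occur unchanged in Abcb1b. A stretch of 60 coding bases with the mean identity (bases 46 to 105 of both, GENCODE vM21) shows the 7 differing bases in capitals.
Abcb1a: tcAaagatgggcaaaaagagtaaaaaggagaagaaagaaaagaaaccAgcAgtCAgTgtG
Abcb1b: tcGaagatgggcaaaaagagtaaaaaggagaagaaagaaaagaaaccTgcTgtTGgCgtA
Counts for this pair are uncertain to the extent that reads were divided between them. Counts were not whole in 10 of 12 libraries for Abcb1b and in 6 of 12 for Abcb1a. The parts beyond the whole numbers summed to 0.678% of the Abcb1b total and 0.0338% of the Abcb1a total. Such a part is less than a whole count per library however many reads were divided. It therefore does not measure the share of divided reads.

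Levels were compared between genes as CPM per kilobase of counted length. Abcc2 and Abcc3 held the first 2 ranks in every group. In Tom- oil the order was Abcc3 (68.9 ± 14.1 CPM per kilobase, SD, n = 3), Abcc2 (56.3 ± 8.03), Abcb4 (30.0 ± 3.18), Abca1 (25.5 ± 1.59), Abcg5 (15.3 ± 2.64), Abcg8 (11.01 ± 0.891), Abcg2 (6.74 ± 0.618), Abcb1a (2.52 ± 0.0277), Abcc4 (0.698 ± 0.344) and Abcb1b (0.131 ± 0.0678). The libraries of Abcc3 and Abcc2 overlapped, as did those of Abcb4 and Abca1, and the other neighbours in this order did not. In Tom+ oil Abca1 (31.1 ± 5.73) stood before Abcb4 (24.4 ± 3.75), with overlapping libraries. In Tom+ CCl4 Abcc2 (84.0 ± 13.9) stood apart from Abcc3 (58.9 ± 9.75), and Abcc4 (3.65 ± 1.30) came before Abcb1a (2.20 ± 0.196) with libraries that overlapped. Abcc4 thus made up 0.321% of the summed level per length of the 10 genes in Tom- oil and 1.58% in Tom+ CCl4, and Abcc2 25.9% and 36.4%. Across the 12 libraries the highest level was 17.5 times the lowest for Abcc4 and 4.07 times for Abcb1b, whereas it was 1.45 times (Abcg2) to 2.48 times (Abcc2) for the other 8 genes.

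**Figure D1:**
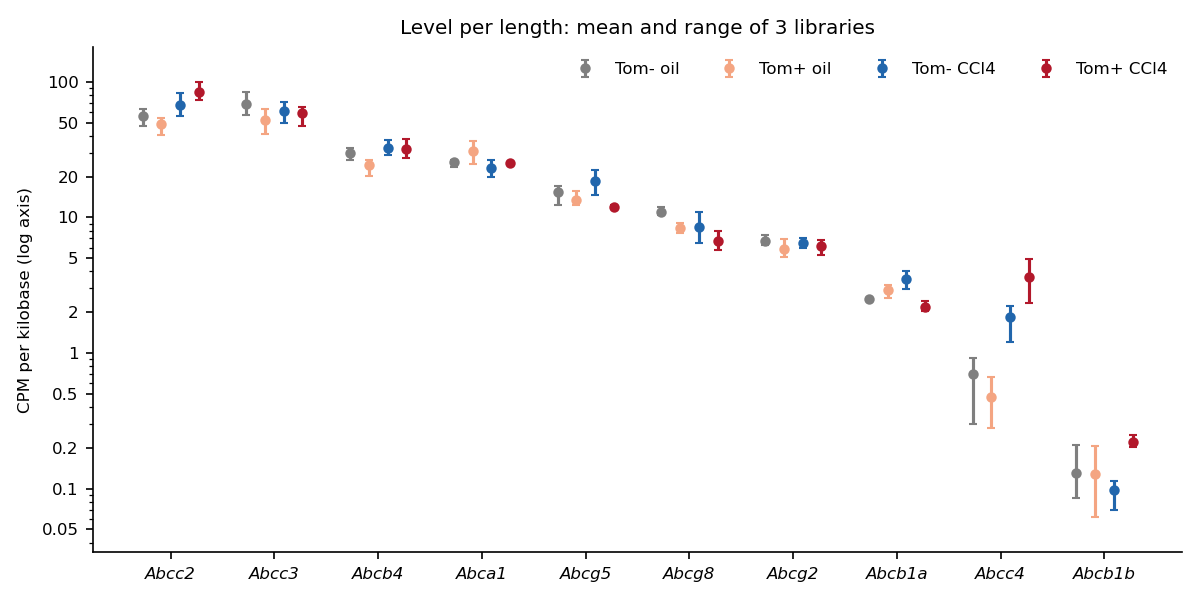
Level of each of the 10 transporter genes per length (CPM per kilobase, log axis) in the 4 groups; points are means and bars run from the lowest to the highest of 3 libraries. Abcc2 and Abcc3 lie highest and Abcb1b lowest in every group, and Abcc4 spans 0.280 to 4.91 CPM per kilobase over the 12 libraries.

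The comparison of CCl4 with oil asked how chronic injury changed these genes in each fraction. In Tom+ hepatocytes Abcc4 and Abcc2 were higher with CCl4, and none of the 10 was lower. In Tom- hepatocytes none of the 10 was called. A gene was called when edgeR's adjusted p over all 17121 genes was under 0.05 and its log2 fold change passed 0.75 in either direction. In Tom+ hepatocytes, 2 of the 10 genes were thus called (5.24% of all genes tested), both higher (2.9% of all genes, with 2.34% lower), and in Tom- hepatocytes 0 of 10 (7.92% of all genes). Without the 2 doubted oil libraries the counts were again 2 (3.5% of all genes) and 0 (5.46%). The median log2 fold change of the 10 genes was 0.11 in Tom+ and 0.03 in Tom-, against 0 for all genes in both. At an unadjusted p under 0.05 there were 5 of the 10 genes in Tom+ (24.4% of all genes) and 3 in Tom- (31.5% of all genes).

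Abcc4, the basolateral exporter of bile acids and cyclic nucleotides, had 1.79, 4.28 and 3.04 CPM in Tom+ oil and 14.8, 23.7 and 31.4 CPM in Tom+ CCl4. The lowest CCl4 library was above the highest oil library. The gene was 7.72-fold higher with CCl4 (log2 fold change 2.95 ± 0.49 SE, edgeR adjusted p = 0.00591). In Tom- hepatocytes it had 1.93, 5.54 and 5.91 CPM with oil and 7.69, 13.7 and 14.2 CPM with CCl4. These groups did not overlap either, and the log2 fold change of 1.40 ± 0.47 did not pass (edgeR adjusted p = 0.0695). DESeq2 called Abcc4 in Tom- (1.41, adjusted p = 0.0294), as the 1 gene of the 10 (9.71% of all genes). Averaged over both fractions, Abcc4 was the 1 gene of the 10 that was called (log2 fold change 2.17 ± 0.34, edgeR adjusted p = 0.00195; 8.43% of all genes). The average treats Tom+ and Tom- libraries of one number as separate, and with those libraries summed the value was 2.26 (edgeR adjusted p = 0.0345). It was 2.18 without the 2 doubted oil libraries (edgeR adjusted p = 0.00152). With those 2 libraries left out, the log2 fold change was 3.30 in Tom+ (edgeR adjusted p = 0.00287) and 1.05 in Tom- (edgeR adjusted p = 0.113). The 3 genes whose profiles over the 12 libraries lay nearest to that of Abcc4 were Gulo, Gm38392 and Anxa2, at root-mean-square distances of 0.357, 0.372 and 0.396 on the log2 CPM scale (of 9661 genes with a mean of at least 5 CPM), where Abcc4 itself had an SD of 1.29.

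Abcc2, which exports conjugated bilirubin into bile, had 343, 465 and 432 CPM in Tom+ oil and 628, 672 and 852 CPM in Tom+ CCl4, with no overlap. It was 1.73-fold higher (log2 fold change 0.79 ± 0.17, edgeR adjusted p = 0.0112). The call was lost without Tom+ oil 1 (0.68, edgeR adjusted p = 0.0576) and without Tom+ CCl4 3 (0.65, edgeR adjusted p = 0.0527), and without the 2 doubted oil libraries it was kept (0.89, edgeR adjusted p = 0.0192). In Tom- hepatocytes Abcc2 had 404, 536 and 501 CPM with oil and 479, 534 and 706 CPM with CCl4, and the groups overlapped (0.25 ± 0.17, edgeR adjusted p = 0.327). Averaged over both fractions its log2 fold change of 0.52 ± 0.12 had an edgeR adjusted p of 0.00794 but lay under the fold threshold. With the adjusted p alone, Abcc2 and Abcc4 were the 2 of the 10 that passed (22% of all genes), but Abcc2 no longer passed when same-numbered libraries were summed (0.55, edgeR adjusted p = 0.0589). The nearest profiles were those of Entpd5, Pitpnm2 and Slc16a7 (0.105, 0.123 and 0.128, with an SD of 0.355 for Abcc2).

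**Figure D2:**
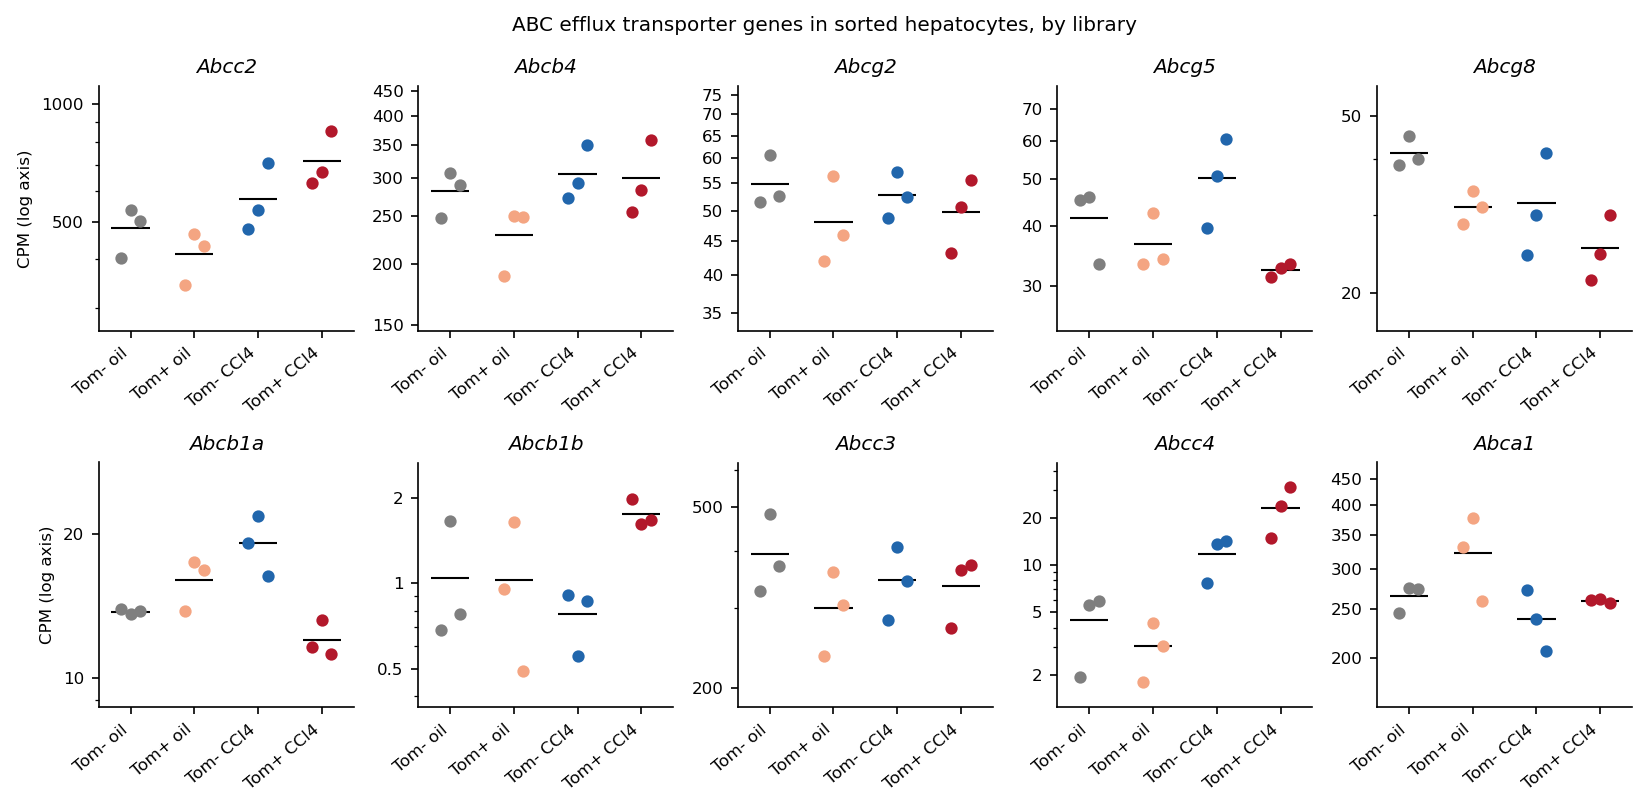
CPM of each gene in every library (log axis, a scale of its own in each panel) for the 4 groups; the bars are group means of 3 libraries. For Abcc4 all 6 CCl4 libraries (7.69 to 31.4 CPM) lie above all 6 oil libraries (1.79 to 5.91 CPM), and the mean of Abcb1a is highest in Tom- CCl4 (19.2 CPM) and lowest in Tom+ CCl4 (12.03 CPM).

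Abcb1a, a P-glycoprotein of the canalicular membrane, differed in opposite directions in the 2 fractions, and neither difference was called. In Tom- hepatocytes it had 13.9, 13.6 and 13.8 CPM with oil and 19.2, 21.9 and 16.4 CPM with CCl4 (log2 fold change 0.47 ± 0.13, edgeR adjusted p = 0.0216, under the fold threshold). With the adjusted p alone it was the 1 gene of the 10 that passed in Tom- (16.1% of all genes), and without the 2 doubted oil libraries it did not (0.48, edgeR adjusted p = 0.063). In Tom+ hepatocytes it had 13.8, 17.5 and 16.8 CPM with oil and 11.6, 13.3 and 11.2 CPM with CCl4 (-0.42 ± 0.12, edgeR adjusted p = 0.0521), and the value was -0.34 without the doubted libraries (edgeR adjusted p = 0.212). In neither fraction did the libraries of the treatments overlap. Abcb1b, its paralog, had few reads, with 20 to 86 counts per oil library and 20 to 162 per CCl4 library. Its log2 fold changes were -0.43 ± 0.44 in Tom- and 0.77 ± 0.42 in Tom+, and neither passed (edgeR adjusted p = 0.534 and 0.283). Without the doubted libraries they were -0.65 and 1.27 (edgeR adjusted p = 0.361 and 0.115). Per length, Abcb1a exceeded Abcb1b 22.5 ± 9.33 times in Tom- oil, 28.9 ± 18.5 times in Tom+ oil, 38.7 ± 16.6 times in Tom- CCl4 and 10.1 ± 1.75 times in Tom+ CCl4 (SD, n = 3).

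The sterol exporters did not differ by a called amount. Abcg8 had log2 fold changes of -0.37 ± 0.17 in Tom- (edgeR adjusted p = 0.156) and -0.31 ± 0.17 in Tom+ (edgeR adjusted p = 0.294), and its partner Abcg5 had 0.28 ± 0.16 and -0.18 ± 0.16. Per length, the ratio of Abcg5 to Abcg8 was 1.62, 1.41 and 1.15 in Tom- oil and 2.24, 2.35 and 2.02 in Tom- CCl4, without overlap. In Tom+ it was 1.62, 1.73 and 1.52 with oil and 2.02, 1.85 and 1.54 with CCl4, with overlap. Abca1 (chr4:53030787-53159895), which loads cholesterol on apolipoprotein A-I, ranged from 207 to 273 CPM in Tom- CCl4 against 246 to 275 CPM in Tom- oil, and from 256.6 to 262 CPM in Tom+ CCl4 against 259 to 376 CPM in Tom+ oil. Its groups overlapped in both fractions (-0.14 ± 0.13 and -0.31 ± 0.13).

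The remaining exporters had small differences, none of which passed. Abcb4, the phosphatidylcholine transporter, had 189, 250.1 and 249 CPM in Tom+ oil and 256, 283 and 357 CPM in Tom+ CCl4. These groups did not overlap (0.38 ± 0.15, edgeR adjusted p = 0.129), and in Tom- the value was 0.12 ± 0.15. Abcg2 (chr6:58584523-58695676) varied least of the 10 across the 12 libraries, from 41.9 to 60.7 CPM, with log2 fold changes of -0.06 ± 0.12 in Tom- and 0.05 ± 0.12 in Tom+. Abcc3 (chr11:94343295-94392997), the basolateral glucuronide exporter, had -0.19 ± 0.19 and 0.16 ± 0.19, and its libraries ranged from 235 to 482 CPM with oil and from 271 to 408 CPM with CCl4. Without the doubted libraries these 3 genes, Abcg5, Abcg8 and Abca1 lay between -0.41 (Abcg8) and 0.35 (Abcg5) in Tom- and between -0.23 (Abcg8) and 0.46 (Abcb4) in Tom+, and none was called. Groups of the 10 genes that did not overlap numbered 5 in Tom+ (Abcc2, Abcc4, Abcb1a, Abcb4 and Abcg5; 29.3% of all genes) and 2 in Tom- (Abcc4 and Abcb1a; 36% of all genes).

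**Figure D3:**
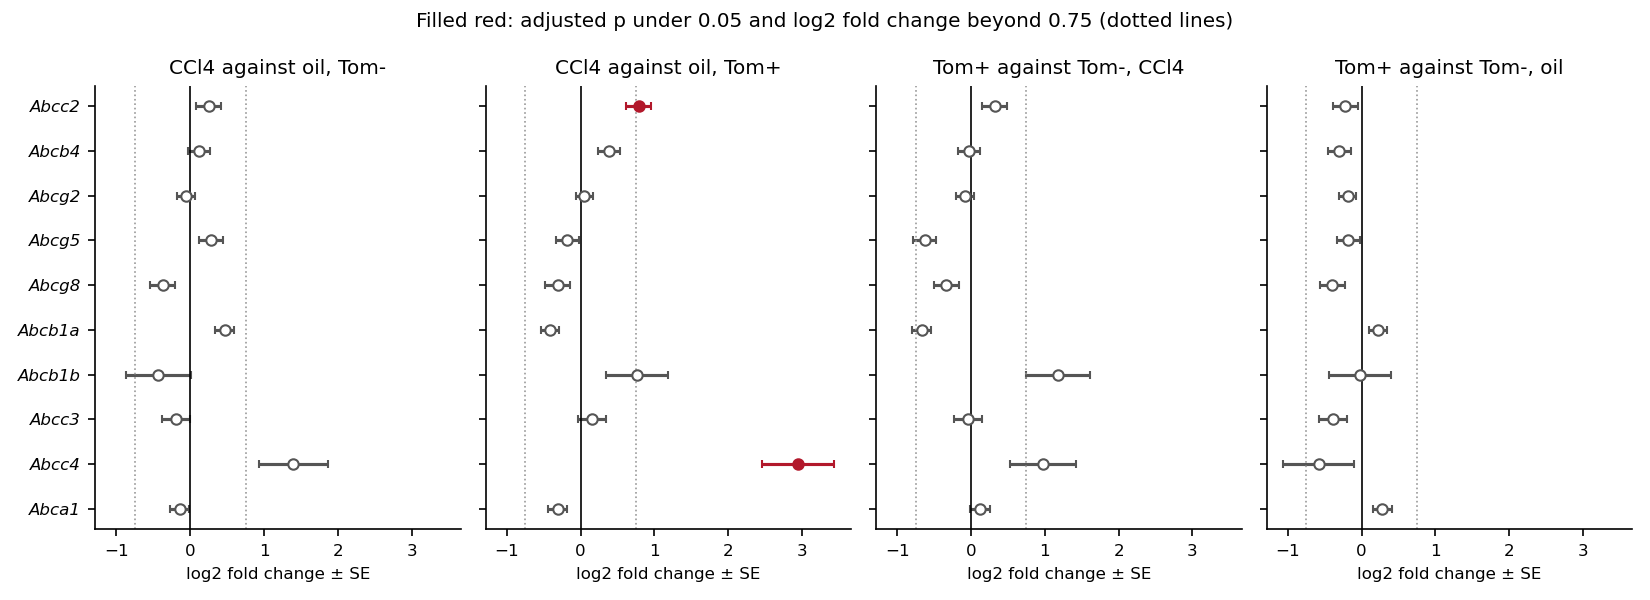
Log2 fold change with its standard error for the 10 genes in 4 comparisons of 3 against 3 libraries; filled red points passed the adjusted p and the fold threshold of 0.75 (dotted lines). The 2 filled points are Abcc4 (2.95) and Abcc2 (0.79) for CCl4 against oil in Tom+.

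Markers of liver zones moved with these comparisons. The summed level of 10 zone 3 (pericentral) markers was 783 to 2538 CPM in Tom+ oil and 3254 to 4313 CPM in Tom+ CCl4, and 1932 to 5066 CPM and 1369 to 2297 CPM in the corresponding Tom- groups. The sum of 10 zone 1 (periportal) markers was 11780 to 13000 CPM in Tom+ oil and 5560 to 7018 CPM in Tom+ CCl4, and 10770 to 12870 CPM and 7916 to 10170 CPM in Tom-. In Tom+, 5 of the 10 zone 3 markers were called higher with CCl4 and 7 of the 10 zone 1 markers lower. In Tom-, 0 zone 3 markers were called higher and 1 lower, and the median log2 fold change of the 10 was 0.44. The lower zone 3 sum in Tom- CCl4 therefore does not describe the list as a whole. Cyp2e1, the most abundant of these markers, averaged 2331 CPM in Tom- oil and 1163 CPM in Tom- CCl4. The zone 1 sum was also lower in Tom- CCl4. Of the 10 zone 1 markers, however, 0 were called lower in Tom- and 1 was called higher, with a median log2 fold change of -0.35. Library 1 had the lowest Abcc4 level and the lowest zone 3 sum in each of the 4 groups. Single zone 3 markers did not all follow the sum. In Tom+ CCl4, library 1 was lowest for Cyp1a2, Cyp2e1, Oat and Lgr5 but not for Glul, Rhbg, Slc1a2, Axin2, Tbx3 and Cyp7a1. Stellate markers were also higher with CCl4 (50.4 to 103 CPM, against 8.84 to 24.4 CPM with oil), with 7 of 8 called in Tom- and 6 of 8 in Tom+. All 8 endothelial markers were called higher with CCl4 in Tom-, with summed levels of 122 to 186 CPM with oil and 313 to 330 CPM with CCl4, and 0 of 8 in Tom+ (133 to 224 CPM and 160 to 218 CPM). The part of these markers in the transporter differences was not tested.

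The comparison of Tom+ with Tom- hepatocytes in CCl4 asked what distinguished labelled from unlabelled cells of injured liver. None of the 10 genes was called (1.96% of all genes tested), with 3 at an unadjusted p under 0.05 (22.8% of all genes) and a median log2 difference of -0.03 against 0 for all genes. Libraries of the same number deviated together, however, and with the number within each treatment as a replicate block 2 of the 10 genes were called, Abcc4 and Abcb1b, both higher in Tom+ (3.98% of all genes). The same 2 were called with the block in the 6 CCl4 libraries alone (5.18% of all genes). Their calls therefore depend on this pairing, and DESeq2 without the block called 0 of the 10.

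Abcc4 was higher in the Tom+ library of each pair, by 0.94, 0.79 and 1.14 on the log2 scale for numbers 1 to 3, and the 2 groups did not overlap. The difference was 0.97 ± 0.45 without the block (edgeR adjusted p = 0.234) and 0.96 ± 0.14 with it (edgeR adjusted p = 0.00044). Abcb1b had 0.910, 0.553 and 0.866 CPM in Tom- CCl4 and 1.99, 1.62 and 1.67 CPM in Tom+ CCl4. All 3 pairs were higher in Tom+ and the groups did not overlap, with 1.18 ± 0.43 without the block (edgeR adjusted p = 0.122) and 1.19 ± 0.29 with it (edgeR adjusted p = 0.014). The 20 to 162 counts behind these values and the sequence shared with Abcb1a limit their precision.

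Abcb1a and Abcg5 were lower in the Tom+ library of each pair and did not reach the fold threshold. With the adjusted p alone they were the 2 of the 10 that passed (5.79% of all genes). For Abcb1a the difference was -0.67 ± 0.13 (edgeR adjusted p = 0.0105). Abcg5 had 39.6, 50.9 and 60.6 CPM in Tom- CCl4 and 31.3, 32.8 and 33.3 CPM in Tom+ CCl4 (-0.63 ± 0.16, edgeR adjusted p = 0.0332). Its partner Abcg8 was also lower in each of the 3 pairs (-0.34 ± 0.17, edgeR adjusted p = 0.256), while Abcc2 was higher in each (0.32 ± 0.17, edgeR adjusted p = 0.279). Of the 10 genes, 4 had groups that did not overlap (28.7% of all genes). The remaining 4 genes, Abcb4, Abcg2, Abcc3 and Abca1, lay between -0.08 and 0.12. Left out one at a time, 2 libraries moved genes past the fold threshold: Abcg5 without Tom- CCl4 1 (-0.78, edgeR adjusted p = 0.0159) and Abcb1a without Tom- CCl4 3 (-0.77, edgeR adjusted p = 0.00817).

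Endothelial markers stood apart in this comparison too, with summed levels of 313 to 330 CPM in Tom- CCl4 and 160 to 218 CPM in Tom+ CCl4, and 4 of 8 were called lower in Tom+. The zone sums given above also separated these 2 groups, with 0 of 10 zone 3 markers called and 5 of 10 zone 1 markers called lower in Tom+. Their part in the differences of the transporters was not tested.

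**Figure D4:**
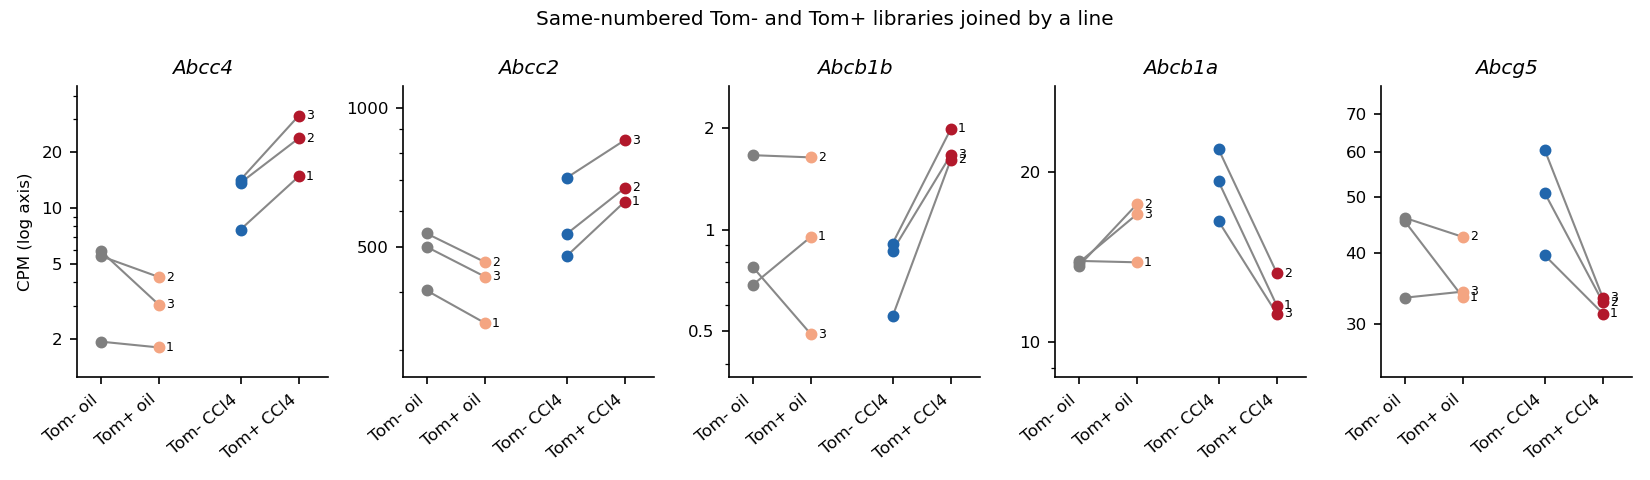
CPM (log axis, a scale of its own in each panel) of 5 genes, with the Tom- and Tom+ libraries of the same number and treatment joined by a line and the number at the right. In CCl4 all 3 lines slope up for Abcc4, Abcc2 and Abcb1b and down for Abcb1a and Abcg5, whereas in oil all 3 slope down for Abcc4 and Abcc2.

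The same comparison in oil showed no called gene, neither among the 10 nor over the whole table (0% of all genes tested by edgeR, with 1198 genes at an unadjusted p under 0.05 and 17 genes, or 0.0994%, called by DESeq2). Of the 10, 2 had an unadjusted p under 0.05 (7% of all genes), and the median log2 difference was -0.20 against 0.01 for all genes. Abcc2, Abcc3, Abcc4, Abcb4, Abcg2 and Abcg8 were lower in the Tom+ library of all 3 pairs, with log2 differences from -0.58 (Abcc4) to -0.19 (Abcg2). Abcg8 was the 1 gene whose groups did not overlap (11.7% of all genes): 38.8, 45.1 and 40.01 CPM in Tom- and 28.6, 34.0 and 31.2 CPM in Tom+ (-0.40 ± 0.17, edgeR adjusted p = 0.679). With the block none of the 10 was called (0.234% of all genes). The 2 libraries that went against their labels are on opposite sides of this comparison, and without them the value of Abcc4 was -1.28 and that of Abcc3 -0.67 (edgeR adjusted p = 0.617 and 0.604).

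Whether the difference between Tom+ and Tom- depended on CCl4 was tested as an interaction. Abcb1a was the 1 gene of the 10 called (1.17% of all genes), with a log2 difference of -0.89 ± 0.18 between the contrast in CCl4 and that in oil (edgeR adjusted p = 0.0323). Its Tom+ against Tom- difference was 0.22 ± 0.12 in oil and -0.67 ± 0.13 in CCl4. The sign was kept in all 21 alternatives and the call in 12, and it was lost without the 2 doubted oil libraries (-0.83, edgeR adjusted p = 0.0921; 0.85% of all genes called) and without each of 8 single libraries (-0.78 to -0.96, edgeR adjusted p = 0.0502 to 0.0982). The 8 libraries were Tom- oil 1 and 2, Tom+ oil 2, Tom- CCl4 1 and 2, and Tom+ CCl4 1, 2 and 3. The endothelial sums, like Abcb1a, were highest in Tom- CCl4, with medians over the 3 libraries of 164 CPM in Tom- oil, 189 CPM in Tom+ oil, 318 CPM in Tom- CCl4 and 192 CPM in Tom+ CCl4, and their part in this interaction was not tested. Profiles nearest to that of Abcb1a were those of Afm, Ddx39b and Lpar6 (distances of 0.098, 0.104 and 0.108, with an SD of 0.276 for Abcb1a).

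With the replicate block, Abcc4 was called in addition (5.48% of all genes), with 1.47 ± 0.21 (edgeR adjusted p = 0.000709) against 1.55 ± 0.66 without it (edgeR adjusted p = 0.249). Its Tom+ library was higher in all 3 pairs with CCl4 and lower in all 3 with oil, and Abcc2 showed the same signs (0.54 ± 0.24, edgeR adjusted p = 0.252). With the block the value of Abcc2 was 0.55 ± 0.09 (edgeR adjusted p = 0.00185), under the fold threshold. Since 2 of the 3 oil pairs joined libraries with like reporter levels, their direction is one of labels. Without the doubted libraries, and without the block, Abcc4 had 2.24 (edgeR adjusted p = 0.0984) and Abcc2 0.75 (edgeR adjusted p = 0.211). Abcb1b had the largest error but for Abcc4 (1.20 ± 0.60, edgeR adjusted p = 0.311).

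Among 12 transcription factors known to act on these transporters, edgeR called none for CCl4 against oil in either fraction. In each fraction 3 had an unadjusted p under 0.05 (31.5% of all genes in Tom- and 24.4% in Tom+). Nfe2l2, the regulator of antioxidant genes, had log2 fold changes of 0.39 ± 0.11 in Tom- (edgeR adjusted p = 0.0312) and 0.36 ± 0.11 in Tom+ (edgeR adjusted p = 0.0573), with no overlap in either and both under the fold threshold. Nr1i3 (CAR) had 0.11 ± 0.31 and 0.87 ± 0.31 (edgeR adjusted p = 0.84 and 0.113). Nr1h4 (FXR), Nr1i2 (PXR) and Nr1h3 (LXRα) lay between -0.20 and 0.01 in both fractions, and none passed. In CCl4, 2 of the 12 were higher in Tom+ than in Tom- (0.222% of all genes were). Ppara, the receptor for fatty acids, had 64.7, 46.1 and 56.5 CPM in Tom- CCl4 and 115, 85.8 and 90.7 CPM in Tom+ CCl4 (0.80 ± 0.16, edgeR adjusted p = 0.0133). Ahr had 31.0, 34.9 and 31.9 CPM against 53.2, 58.3 and 53.6 CPM (0.76 ± 0.17, edgeR adjusted p = 0.0261). In the interaction edgeR called none of the 12, with 2 at an unadjusted p under 0.05 (18.6% of all genes). With the block it called 3 (5.48% of all genes): Ahr (0.86), Ppara (0.81) and Nr1i3 (0.82). Their edgeR adjusted p values were 0.00051, 0.000352 and 0.00473 with the block and 0.0835, 0.0759 and 0.383 without it. Without the doubted oil libraries 3 calls were gained and 1 was lost. Ppara was then called lower with CCl4 in Tom- (-0.76, edgeR adjusted p = 0.0193, against -0.64) and Ahr higher with CCl4 in Tom+ (0.79, edgeR adjusted p = 0.00579, against 0.72) and in the interaction (1.16, edgeR adjusted p = 0.0226). Ahr was no longer called for Tom+ against Tom- in CCl4 (0.74, edgeR adjusted p = 0.00952).

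Of 11 target genes of these factors, 1 was higher and 1 lower with CCl4 in Tom- (6.33% and 1.59% of all genes), and 2 were higher in Tom+ (2.9% of all genes). Cyp3a11, a PXR target that oxidizes drugs, was higher in both, by 0.76 ± 0.19 in Tom- (edgeR adjusted p = 0.0183) and 0.75 ± 0.19 in Tom+ (edgeR adjusted p = 0.0262). Cyp1a2, an Ahr target that is also one of the zone 3 markers, was 4.60-fold higher in Tom+ (2.20 ± 0.52, edgeR adjusted p = 0.0315). Cyp4a14, a PPARα target, was lower in Tom- (-1.08 ± 0.32, edgeR adjusted p = 0.0486). Without the doubted oil libraries both calls in Tom- were lost (Cyp3a11 0.64, edgeR adjusted p = 0.0805, and Cyp4a14 -1.19, edgeR adjusted p = 0.0703) and both in Tom+ were kept. For Tom+ against Tom- in CCl4 edgeR called none of the 11, with 1 at an unadjusted p under 0.05 (22.8% of all genes). With the block, Cyp4a14 was called lower in Tom+ in oil (-0.87, edgeR adjusted p = 0.000876, with 0.234% of all genes called). Without the block its edgeR adjusted p was 0.642. In the interaction the block called 4 of the 11 (5.48% of all genes), with edgeR adjusted p from 0.000133 to 0.0168. They were Cyp1a2 (1.24), Cyp4a14 (1.18), Nqo1 (0.83) and Srebf1 (-0.86). Without the block their edgeR adjusted p ran from 0.221 to 0.42. Without the block none of the 11 was called in either comparison, with or without the doubted oil libraries. The oil pairs numbered 1 and 2 joined libraries with like reporter levels, so their direction is one of labels. Of 12 partner genes (lipid acceptors, membrane scaffolds and other bile transporters), 1 was called lower (2.34% of all genes in that comparison). Slc51b, a subunit of the basolateral bile acid exporter OST, was lower in Tom+ with CCl4 (-1.99 ± 0.53, edgeR adjusted p = 0.031), at 0.637 to 0.896 CPM with oil and 0.131 to 0.292 CPM with CCl4. Without the doubted libraries it was not called (-2.01, edgeR adjusted p = 0.0795).

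Of the 40 other ABC genes, 30 passed the filter. With CCl4, 6 of the 30 were higher in Tom- (6.33% of all genes were) and none was lower, whereas in Tom+ 2 were higher and 1 was lower (2.9% and 2.34%). Without the doubted oil libraries 3 of the 6 were still called in Tom- (Abcc5, Abcc9 and Abcg1), and in Tom+ Abcd4 was not (-0.68, edgeR adjusted p = 0.0663). In Tom- the 4 with the smallest adjusted p were Abca7 (0.81 ± 0.14), Abcc9 (2.05 ± 0.36), Abcg1 (1.45 ± 0.27) and Abcc5 (1.53 ± 0.31), with edgeR adjusted p from 0.00226 to 0.00552. Abcg1, a cholesterol exporter, had 1.48, 1.43 and 2.13 CPM in Tom- oil and 4.68, 4.20 and 4.88 CPM in Tom- CCl4, and 1.95, 2.14 and 3.74 CPM in Tom+ CCl4. These low levels stood beside the endothelial sums that were also highest in Tom- CCl4, and the part of those cells was not tested. In Tom+ the called genes were Abcd2, a peroxisomal fatty acid transporter (0.80 ± 0.11, edgeR adjusted p = 0.000667), Abcc12 (3.09 ± 0.70, edgeR adjusted p = 0.0144) and Abcd4, a lysosomal cobalamin transporter (-0.78 ± 0.17, edgeR adjusted p = 0.0111). Abcc12 had 4 to 14 counts per Tom+ oil library and 40 to 94 per Tom+ CCl4 library. Between Tom+ and Tom- in CCl4, Abcc10 was lower (-1.01 ± 0.24, edgeR adjusted p = 0.0317), as were 1.74% of all genes. With the block (3.98% of all genes called) Abcg1 was lower as well (-0.87, edgeR adjusted p = 0.0105, against 0.0825 without it). In the interaction edgeR called none of the 30, with 12 at an unadjusted p under 0.05 (18.6% of all genes). With the block 3 were called (5.48% of all genes), all lower: Abcg1, Abcc10 and Abcc9. Without the block their edgeR adjusted p values were 0.153, 0.118 and 0.329. Abcb11, the bile salt export pump, was measured at 710.1 to 962 CPM in all 12 libraries. Its log2 fold changes with CCl4 were 0.11 ± 0.12 in Tom- and -0.07 ± 0.12 in Tom+, and neither passed (edgeR adjusted p = 0.575 and 0.768).

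**Figure D5:**
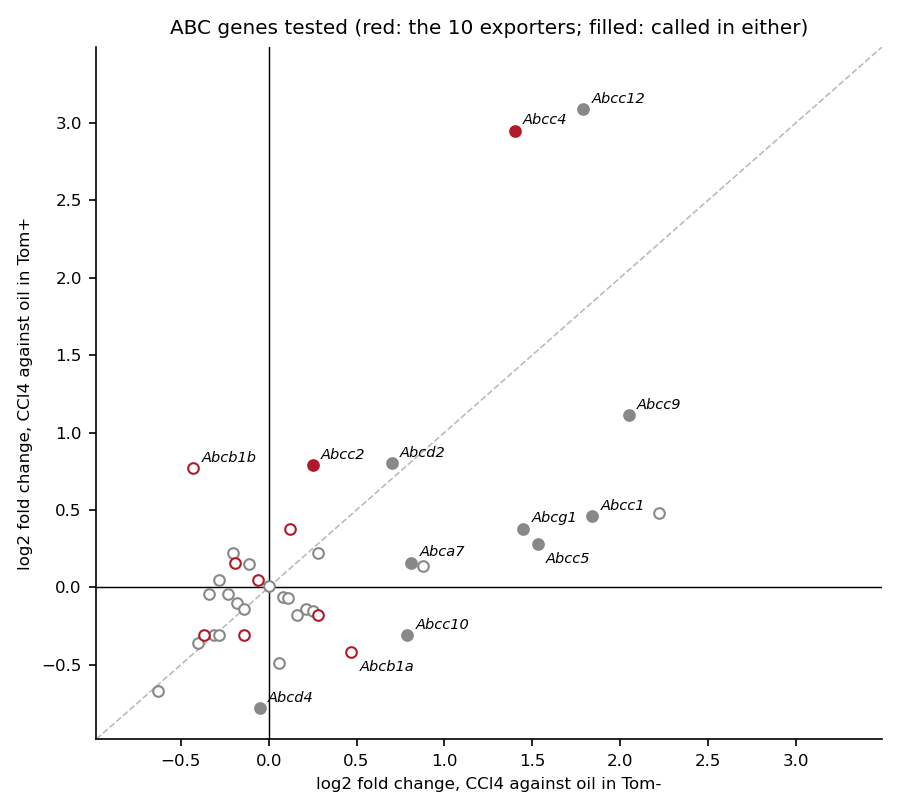
Log2 fold change of CCl4 against oil in Tom- (x axis) and in Tom+ (y axis) for the 40 ABC genes tested; red marks the 10 exporters, filled points were called in either fraction and the dashed line marks equal values. Abcc4 (1.40 and 2.95) lies far from the other 9 exporters, near Abcc12 (1.79 and 3.09), and Abcb1a (0.47 and -0.42) has opposite signs in the 2 fractions.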

How the data were processed

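PolyA, strand-specific RNA-seq libraries of FACS-sorted, DAPI-negative Tom+ and Tom- hepatocytes were assigned to 4 groups of 3 from their labels. Nothing states that the 3 libraries of a group came from separate mice, so p-values measure the spread between these libraries. Per the labels, the authors used fastp (v0.23.2), HISAT2 (v2.1.0) on mm10 and DESeq2 (v1.42.1). The authors deposited a table of expected counts without normalization. In each library 30.4% to 32.9% of values above 0 were not whole (tolerance 0.001), although whole numbers had been assumed in planning, and all were rounded. The counting program, its strand setting and annotation release are not given in the sources used here. Symbols matched 54723 of 54839 features (99.8%).

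Group coefficients were fitted by edgeR (v4.0.16, under R v4.3.3), with TMM, filterByExpr, the robust quasi-likelihood test, all 12 libraries and Benjamini-Hochberg adjustment over 17121 genes. Standard errors came from the quasi-likelihood statistic. Tom+ and Tom- libraries share replicate numbers in the labels. In each treatment the deviations of same-numbered libraries correlated (r = 0.479, 0.549 and 0.348 in oil, 0.655, 0.504 and 0.707 in CCl4, over 8560 genes), so a fit with the number within each treatment as a block (6 blocks) is given for comparisons of Tom+ with Tom-, where it changes a call. Numbers did not pair libraries across treatments. Alternatives were RLE and upper-quartile scaling, other filters, DESeq2 (v1.42.0), limma-voom (limma v3.58.1), adjusted p alone, the block, 6 libraries, summed libraries and leaving out libraries. The block in 6 libraries was chosen after seeing the data. The scripts were run on simulated counts that changed with CCl4 alone. These counts held no pairing of libraries and no difference between fractions. They could therefore not show whether the block, Tom+ against Tom- or interaction fits recover a real difference.

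All 10 transporters are named. Of the other lists, counts are given, with values for up to 4 called genes per comparison by smallest adjusted p and for Nr1h4, Nr1i2, Nr1i3, Nr1h3, Nfe2l2, Abcb11 and Abcg1. Genes called only with the block were named after their values were seen. The transporters and lists were chosen with earlier results of these data known. Promoter sequences are from RefSeq (GRCm38.p6, 9 of 10 genes) and coding sequences from GENCODE vM21, and sequences and figures were handled in Python (v3.11.15; Biopython v1.88, matplotlib v3.10.9).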

Additional observations from a re-analysis of the deposited data

Results flagged for a closer look

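The interaction of Abcb1a, its Tom+ against Tom- difference in CCl4 minus that in oil, was -0.89 on the log2 scale (edgeR adjusted p = 0.0323). It was called in 12 of 21 alternatives and lost, among others, without the 2 doubted oil libraries (edgeR adjusted p = 0.0921). All 3 same-numbered pairs were lower in Tom+ with CCl4, and 2 of 3 were higher in Tom+ with oil. The other results picked out are genes whose 3 pairs all went one way with CCl4 and all the other way with oil. They are Abcc4 (1.55, edgeR adjusted p = 0.249 without the block and 0.000709 with it) and Abcc2 (0.54, edgeR adjusted p = 0.252 without the block and 0.00185 with it, under the fold threshold). In oil, 2 of the 3 pairs joined libraries with like reporter levels (1794 and 1546 CPM, 157 and 135 CPM), so that their direction is one of labels. Groups of 3 libraries were not tested for single outlying libraries.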

How the results depend on the processing

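Of 1340 alternative values of the log2 fold changes of the 10 genes, 1290 kept a call or, uncalled in both fits, moved by no more than 1 SE. Another 26, uncalled in both fits, moved by more than 1 SE. A call was lost in 11 and gained in 13, and 0 reversed a called value. The number of genes called for CCl4 against oil in Tom- was 0, and 1 with DESeq2 (Abcc4), with the adjusted p alone (Abcb1a) and with the replicate block (Abcc4, 1.47, edgeR adjusted p = 0.00017; 9.89% of all genes). For that contrast the numbers do not pair the libraries. In Tom+ it was 2, and 1 to 2 when single libraries were left out. Averaged over both fractions it was 1, and 2 with the adjusted p alone (Abcc2). For Tom+ against Tom- in CCl4 it was 0, and 2 with the adjusted p alone (Abcb1a and Abcg5), 2 with the replicate block, 2 with the block in the 6 libraries of the comparison (Abcc4 0.95, edgeR adjusted p = 2.4e-05, and Abcb1b 1.18, edgeR adjusted p = 0.00863) and 0 to 1 without single libraries. In oil it was 0 throughout. For the interaction it was 1, and 2 with the block, 0 without the 2 doubted oil libraries and 0 to 1 without single libraries. The block changed no other call of the 10 genes. The causes of these changes were not tested.

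Over all genes, counts moved by more than 1.5 times in these cases. With the adjusted p alone 2761 genes were called in Tom- (1356 with the fold threshold), 1622 in Tom+ (897), 3765 averaged (1444) and 992 for Tom+ against Tom- in CCl4 (336). With the block there were 682 for Tom+ against Tom- in CCl4 (843 in 6 libraries), 40 in oil (18 in 6 libraries, against 0) and 938 for the interaction (201). DESeq2 called 538, 17 and 583 in the same 3 comparisons. Averaged over fractions with same-numbered libraries summed there were 848, and a filter of at least 10 counts in every library left 929. Single libraries left out gave 482 to 933 in Tom+ (lowest without Tom+ CCl4 3, 522 without Tom+ oil 1), 902 to 1404 in Tom- (lowest without Tom- CCl4 3), 77 to 352 for Tom+ against Tom- in CCl4 (lowest without Tom- CCl4 2, with 92 without Tom+ CCl4 2, 178 without Tom+ CCl4 1 and 216 without Tom+ CCl4 3), 0 to 26 in oil and 42 to 253 for the interaction (lowest without Tom+ CCl4 2).

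TPM shifted the median of all genes by 0.24 (log2) for Tom+ against Tom- in CCl4 and by 0.14 for CCl4 against oil in Tom+. Relative to these shifts Abcc4 was at 0.96 and 2.93 and Abcb1a at -0.68 and -0.41. With 20 to 162 counts per library, Abcb1b allows no finer statement.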
